A study of Mus musculus with 6 samples.

Results

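The genes described here encode 8 integrin subunits that bind laminins or collagens, followed in lens epithelial cells (LEC) of the mouse after cataract surgery. Itga3, Itga6, Itga7 and Itgb4 encode subunits of laminin receptors, and Itga1, Itga2, Itga10 and Itga11 encode subunits of collagen receptors. They were found in the gene count tables by the Ensembl identifier that carries each symbol, which gave 8 of the 56940 genes listed. All 6 libraries came from C57BL/6 wildtype mice and from lens capsule with the LEC attached to it. In the operation the fiber cell mass is removed and the capsule with its LEC stays in the eye. The 5 day group holds capsules taken 5 days after that operation. The 0 h group holds capsules of the second eye, taken when that eye was operated on. The first eye of these mice had undergone surgery 5 days before, so neither group comes from unoperated animals. There were 3 libraries at each time, each from a pool of 5 capsules, and the labels do not say which pools share mice. The comparison asks how transcripts of LEC change between the operation and 5 days after it.

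An integrin is a heterodimer of 1 alpha and 1 beta subunit that spans the plasma membrane, holds on to the extracellular matrix outside and connects to the actin or intermediate filament cytoskeleton inside. The alpha subunits encoded by Itga3, Itga6 and Itga7, and all 4 collagen-binding alpha subunits, pair with the beta subunit encoded by Itgb1. The product of Itgb4 pairs only with that of Itga6, and this pair anchors epithelia to basement membrane laminin at hemidesmosomes. LEC rest on the lens capsule, a thick basement membrane of laminin, type IV collagen, nidogen and perlecan. Fibrillar collagens such as type I are scarce in the normal lens and are laid down in fibrosis of the capsule after surgery.

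The collagen-binding alpha subunits differ from the laminin-binding ones by an extra inserted domain, the alpha-I domain, which grips collagen through a metal ion. Its metal-ion-dependent adhesion site begins with an aspartate codon, any codon, a serine codon, any codon and a serine codon. That run of codons was searched in 1 coding transcript per gene (GENCODE M21, build GRCm38). It was found in all 4 collagen-binding alpha genes and in none of Itga3, Itga6 and Itga7, whose coding sequences run for 1053, 1073 and 1136 codons. The stretches are shown because they hold the difference that sets the receptor groups apart, with the motif in capitals and 12 bases kept on each side.
Itga1, motif from codon 178: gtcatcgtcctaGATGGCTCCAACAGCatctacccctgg
Itga11, motif from codon 170: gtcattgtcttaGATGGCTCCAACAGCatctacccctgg
Itga10, motif from codon 173: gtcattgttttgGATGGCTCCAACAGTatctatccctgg
Itga2, motif from codon 177: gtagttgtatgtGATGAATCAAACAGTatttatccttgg
Itgb4, motif from codon 138: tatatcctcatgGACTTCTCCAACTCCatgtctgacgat
Of these 39 bases, Itga11 shared 37 with Itga1, Itga10 shared 33 and Itga2 shared 25. Itga2 held another match, at codon 920, that is not shown. The Itgb4 match lies in the related domain of the beta subunit, and 20 of its 39 bases were those of Itga1.

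Total gene counts ran from 6207387 to 9774343 per library. Levels are given as CPM (gene counts scaled to a common library total) on library sizes scaled by the trimmed mean of M values (TMM), and a gene was called where its adjusted p in the quasi-likelihood test of edgeR was below 0.05. Of 14676 genes tested, 47.6% were called, 25.1% higher and 22.5% lower at 5 days, and the CPM of the groups did not overlap for 58.1%. The lens markers fit the tissue label, with Cryaa, the chief alpha-crystallin gene, at 57500, 70440 and 59000 CPM at 0 h and at 12370, 16070 and 5115 CPM at 5 days. The lens transcription factor Pax6 was at 629.8 to 693.8 CPM at 0 h and at 729.3 to 837.0 CPM at 5 days. In these bulk samples, fewer cells of a type and less RNA per cell cannot be told apart. The adjusted p-values measure the spread between these pools only.

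Replicate 3 of the 5 day group stood apart from the other 5 day libraries. It had the lowest summed level of 10 lens epithelium markers, 7895 CPM against 17720 and 22480 CPM, a sum made up mostly of Cryaa and Cryab. Pax6, Six3 and Sox2 of that list were near the other 5 day libraries there, at 729.3, 137.2 and 60.0 CPM against 806.1 and 837.0, 144.2 and 153.5, and 58.3 and 69.2 CPM. Over the list, 7 genes were lower at 5 days, Pax6 was higher and Six3 and Sox2 were not called. Replicate 3 was also the library with clear levels of the keratin genes Krt14 and Krt5. Krt14, a keratin of basal keratinocytes, was at 0.32 and 0.25 CPM in 5 day replicates 1 and 2 and at 45.8 CPM in replicate 3, and Krt5 was at 0.16, 0.25 and 19.9 CPM. The corneal and conjunctival epithelium list as a whole summed to 71.9 to 97.1 CPM at 0 h and to 40.4, 35.4 and 85.4 CPM at 5 days, of which Krt19 made up 34.2, 30.8 and 14.5 CPM. The corneal keratin Krt12 had 11, 0 and 10 counts at 5 days. Of the corneal and conjunctival list, 3 genes were tested, Krt15, Krt4 and Krt19. All 3 fell, beside 22.5% of all genes tested. Krt15 was at 9.42 to 14.8 CPM at 0 h and at 3.98, 3.52 and 2.08 CPM at 5 days. Krt4 was at 6.68 to 9.70 CPM at 0 h and at 0, 0.38 and 0 CPM at 5 days. Values without this library stand beside some, not all, of the results in which it was the highest or lowest by far. The counts of integrin genes called were 5 higher and 1 lower with it and without it.

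Of the 8 genes, 7 passed the filter on low counts and were tested. Transcripts of 5 rose by 5 days (Itga7, Itgb4, Itga1, Itga2 and Itga11), Itga6 fell, Itga3 was not called and Itga10 was too low to test. The share called was thus 6 of 7, beside 47.6% of all genes tested, and for 6 of these 7 the groups did not overlap. The largest change was in Itga7, with a fold change of 81.6, and the only fall was in Itga6, to a level 2.1-fold lower. Itga11 passed the filter only through its 5 day libraries and Itgb4 had 2 of 3 libraries at 0 h above the filter's 1.22 CPM, so the count over tested genes favours rises. The median log2 fold change over the 7 was 2.55, and that over all genes tested was -0.01.

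**Figure D1:**
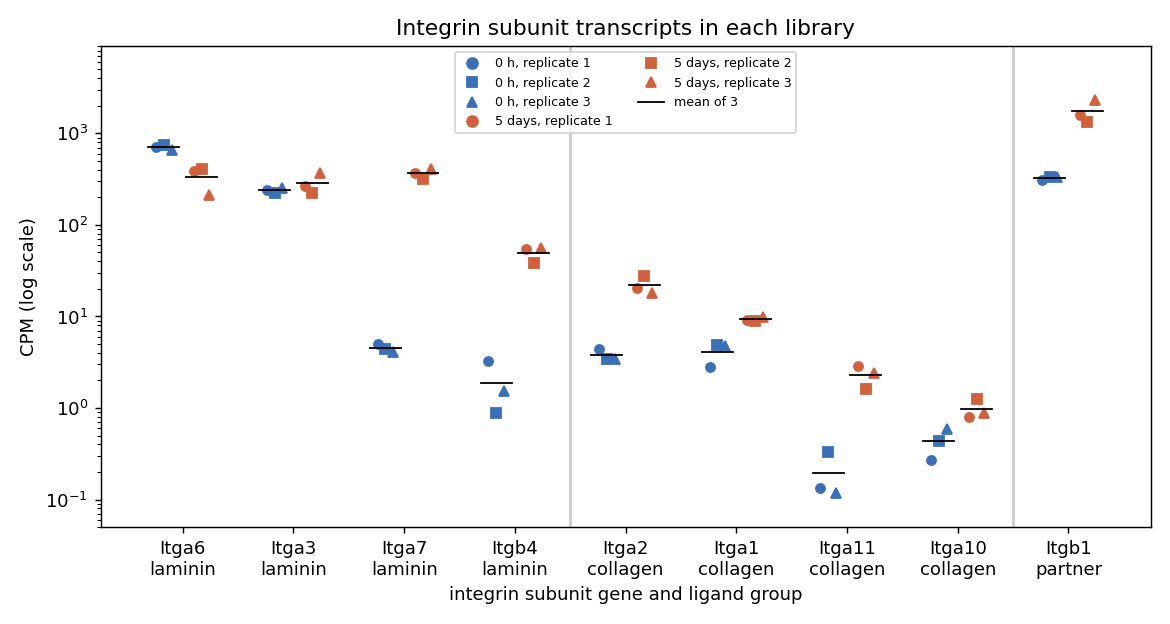
CPM of the 8 integrin subunit genes and of their partner Itgb1 in each of the 6 libraries, on a log axis; blue symbols are 0 h, orange symbols are 5 days, the symbol shape is the replicate and the black line the mean of 3. Itga7 lies near 4 CPM in all blue symbols and above 300 CPM in all orange ones, while the symbols of Itga3 overlap.

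Itga6 encodes an alpha subunit that pairs with the product of Itgb1 or, at hemidesmosomes, with that of Itgb4. Its transcript stood at 714.1, 736.4 and 657.5 CPM at 0 h and at 388.8, 405.1 and 212.9 CPM at 5 days. Every 5 day library was below every 0 h library, and 5 day replicate 3 was the lowest. The log2 fold change was -1.07 (SE 0.20, adjusted p = 0.000739 in the edgeR test), and -0.84 (adjusted p = 5.25e-06) without that library. Foxe3, a transcription factor of the undifferentiated lens epithelium, was also lowest there, at 105.4, 100.3 and 41.5 CPM in the 5 day libraries after 208.1 to 216.4 CPM at 0 h, while Pax6, Six3 and Sox2 were not low there. The part of the lens epithelium's share of the RNA in the Itga6 result was not tested.

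Itga3 encodes the alpha subunit of another epithelial laminin receptor, which it forms with the product of Itgb1. Its level was 239.3, 220.4 and 253.4 CPM at 0 h and 269.0, 224.8 and 370.1 CPM at 5 days. The groups overlapped, since 5 day replicate 2 lay within the 0 h range and only replicate 3 was well above it. The log2 fold change of 0.28 (SE 0.16, adjusted p = 0.166) did not pass the threshold. It was 0.04 without 5 day replicate 3. Without 5 day replicate 2 it was 0.44 and passed (adjusted p = 0.022), so the call rested on which 5 day pools were used.

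Itga7 encodes an alpha subunit known best as the laminin receptor of skeletal and heart muscle, which also occurs in smooth muscle and nerve. It was at 4.98, 4.39 and 4.05 CPM at 0 h, from 34 to 40 counts a library. At 5 days it was at 367.9, 321.0 and 406.9 CPM, from 2312 to 3716 counts a library. The 3 pools of each time lay close together and the groups were far apart, with a log2 fold change of 6.35 (SE 0.15, adjusted p = 2.28e-10). Markers of muscle and nerve sheath cells moved in both directions. The summed level of 10 striated muscle markers was 4.50 to 6.87 CPM at 0 h and 2.39 to 5.89 CPM at 5 days, with Myog and Myod1 at 0 counts in every library. That of 10 smooth muscle and pericyte markers was 230 to 241 CPM and then 211 to 260 CPM, a sum made up mostly of Pdgfrb, which fell. The other 9 summed to 14.9 to 16.6 CPM and then 69.9 to 106 CPM. Of the 8 tested genes of the list 6 rose and 2 fell, beside 25.1% and 22.5% of all genes tested. Cspg4 rose most in level, from 0.83 to 1.62 CPM to 40.9 to 62.0 CPM. Cnn1 and Des were below the filter's 1.22 CPM in every 0 h library, and Rgs5 and Cspg4 in some of them, so this count favours rises. The 7 Schwann cell and neural crest markers summed to 366 to 413 CPM and then 135 to 209 CPM, mostly Pmp22, which is not restricted to those cells and fell. The other 6 summed to 9.22 to 12.4 CPM and then 15.1, 15.6 and 17 CPM. Of the 5 tested genes of the list Sox10 and Mbp rose, 1 fell and 2 were not called, beside the same shares of all genes tested. Sox10 was below 1.22 CPM in every 0 h library. The part of these cells in the Itga7 rise was not tested.

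Itgb4 encodes the hemidesmosome beta subunit, whose long cytoplasmic tail binds plectin. Its level was 3.23, 0.88 and 1.55 CPM at 0 h, from 24, 8 and 13 counts. At 5 days it was 54.3, 38.3 and 55.7 CPM, from 341, 305 and 509 counts. All 5 day libraries were above all 0 h libraries, and the 0 h libraries had a larger SD relative to their mean than those of the other laminin-binding subunit genes. The log2 fold change was 4.75 (SE 0.31, adjusted p = 1.64e-07), and 5.34 without 0 h replicate 1. Without 5 day replicate 3, the library with Krt14 and Krt5, the log2 fold change was 4.64. In 5 day replicate 1, which had 2 counts of Krt14, 1 of Krt5 and 11 of Krt12, Itgb4 was close to its level in replicate 3. The part of surface epithelium in the Itgb4 rise was not tested. An antisense gene on the opposite strand covers 7.7% of the Itgb4 exons, and how strand was counted is not given in the sources used here.

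The hemidesmosome genes on the list, chosen for their link to Itgb4, gave 3 tested genes of 6. All 3 rose, beside 25.1% of all genes tested. Plec, which encodes plectin, stood at 3253, 3081 and 2624 CPM at 0 h and at 5286, 4640 and 5188 CPM at 5 days, a log2 fold change of 0.75 (SE 0.14). Cd151, a tetraspanin that associates with the laminin-binding integrins, rose by 1.04 (SE 0.10) on the log2 scale. Dst, which encodes dystonin, rose by 0.40 (SE 0.12), a call that was lost without 0 h replicate 2 (0.38, adjusted p = 0.0681) or 0 h replicate 3 (0.32, adjusted p = 0.107). Col17a1, the transmembrane collagen of hemidesmosomes, was not tested. It was at 0 to 0.44 CPM at 0 h, at 0.95 and 1.63 CPM in 5 day replicates 1 and 2 and at 25.8 CPM in replicate 3, the library that held Krt14.

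The collagen-binding alpha subunit genes were far lower than Itga6 and Itga3 at both times on the scale of CPM per kb of exon. The 3 tested genes all rose, beside 25.1% of all genes tested called higher, and Itga10 had too few counts for the test. None of the 3 had groups that overlapped, as was so for 58.1% of all genes tested. Itga11 passed the filter only through its 5 day libraries, so both counts favour rises.

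Itga2 encodes the alpha subunit of a receptor that prefers fibrillar collagens and that platelets and many epithelia carry. It was at 4.45, 3.40 and 3.46 CPM at 0 h and at 20.4, 27.6 and 18.1 CPM at 5 days. Each 5 day pool was above each 0 h pool, with the highest value in replicate 2. The log2 fold change was 2.55 (SE 0.24, adjusted p = 3.16e-06). The 6 platelet markers summed to 3.64 to 7.39 CPM at 0 h and 17.5 to 19.1 CPM at 5 days, mostly Itga2b at 0 h. The 2 tested genes of the list both rose, beside 25.1% of all genes tested. Pf4 rose by 2.96 (SE 0.55) and Itga2b by 0.98 (SE 0.35) on the log2 scale. At 0 h, Pf4 was above the filter's 1.22 CPM only in replicate 3, so this count favours rises. Ppbp, not tested, had 0 counts at 0 h and 43 at 5 days. Gp9, Gp1bb and the platelet collagen receptor gene Gp6 were at 0 counts in every library. The part of platelets in the Itga2 rise was not tested.

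Itga1 encodes the alpha subunit of a receptor that prefers type IV collagen and also binds laminin. Its level was 2.83, 4.83 and 4.77 CPM at 0 h and 9.23, 8.92 and 9.75 CPM at 5 days. The 5 day libraries lay close together above all 0 h libraries, of which replicate 1 was the lowest. The log2 fold change was 1.16 (SE 0.28, adjusted p = 0.00462), the smallest rise among the called integrin genes of both groups. Itga1 is also carried by endothelium and smooth muscle. The 10 endothelium markers summed to 12.7 to 23.1 CPM at 0 h and 31.5 to 55.0 CPM at 5 days. Of 7 tested genes 4 were higher and 1 lower, beside 25.1% and 22.5% of all genes tested. The 4 that rose (Pecam1, Cdh5, Tek and Cldn5) were below the filter's 1.22 CPM in every 0 h library, so this count favours rises. Kdr and Vwf were not called and Egfl7 fell. The part of endothelium in the Itga1 rise was not tested.

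Itga11 encodes the alpha subunit of a fibrillar collagen receptor of fibroblasts and other mesenchymal cells. It had 1, 3 and 1 counts at 0 h and 18, 13 and 22 counts at 5 days, which is 0.13, 0.33 and 0.12 CPM against 2.87, 1.63 and 2.41 CPM. The groups were apart, at a depth where the 0 h level rests on 5 counts in all. The fitted log2 fold change was 3.42 (SE 0.63, adjusted p = 0.00071), and 4.01 without 0 h replicate 2. The 10 fibroblast and keratocyte markers summed to 334 to 347 CPM at 0 h and 218 to 285 CPM at 5 days. Nearly all of the 0 h sum and most of the 5 day sum was Pdgfra, which fell. The other 9 summed to 2.96 to 10.1 CPM at 0 h and 37.3 to 87.4 CPM at 5 days. Of the 7 tested genes of the list 5 rose and 1 fell, beside 25.1% and 22.5% of all genes tested. Among the 5 were Dcn at 3.43 (SE 0.70) and Col15a1 at 5.46 (SE 0.55) on the log2 scale. Lum, Col15a1, Cd34 and Dpp4 were below the filter's 1.22 CPM in every 0 h library. Dcn was above it only in 0 h replicate 3, so this count favours rises. Kera and Dpt were at 0 counts in every library. The part of such cells in the Itga11 rise was not tested.

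Itga10 encodes a collagen receptor subunit known from cartilage. It had 2, 4 and 5 counts at 0 h and 5, 10 and 8 counts at 5 days, or 0.27, 0.44 and 0.60 CPM against 0.80, 1.26 and 0.88 CPM. No value overlapped, but only 1 library reached the level the filter asks for. The ratio of the summed counts, scaled by library size, was 2.23 with an exact binomial 95% interval of 1.04 to 5.07, which covers counting error only and not the spread between pools. With no filter, the edgeR test gave a log2 fold change of 1.14 (SE 0.91, adjusted p = 0.418). A gene model on the same strand, Gm42957, overlaps 33.5% of the Itga10 exons, so reads of the 2 could be divided or dropped in counting.

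To compare levels between genes, CPM was divided by the length of the exon union in kilobases (GENCODE M21). At 0 h the order was Itga6 at 77.9 ± 4.51 CPM per kb (SD, n = 3), Itga3 at 41.6 ± 2.89, and then, far lower, Itga7 at 0.553 ± 0.0582, Itga2 at 0.528 ± 0.0823, Itgb4 at 0.269 ± 0.173, Itga1 at 0.223 ± 0.0612, Itga10 at 0.0838 ± 0.0315 and Itga11 at 0.0379 ± 0.0228. Itga6 and Itga3 were each apart from all the others, whereas Itga7 and Itga2, Itgb4 and Itga1, and Itga10 and Itga11 were neighbours with overlapping values. At 5 days Itga3 was at 50.4 ± 13.0 CPM per kb, Itga7 at 45.1 ± 5.31 and Itga6 at 37.2 ± 11.8. Their ranges overlapped, at 39.4 to 64.8, 39.7 to 50.3 and 23.6 to 44.9 CPM per kb, so these 3 had no order beyond their spread. Itgb4 followed at 7.05 ± 1.38 CPM per kb, Itga2 at 3.09 ± 0.70, Itga1 at 0.50 ± 0.0225, Itga11 at 0.449 ± 0.121 and Itga10 at 0.188 ± 0.0474, and only Itga1 and Itga11 overlapped among these. With the longest transcript in place of the exon union the 5 day means were 90.9 for Itga7, 77.9 for Itga6 and 59.2 for Itga3, so the order of the top 3 depended on the length used.

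The makeup of the alpha subunit transcripts moved from mostly Itga6 with Itga3 to similar amounts of Itga3, Itga7 and Itga6. Of the summed CPM per kb of the 7 alpha subunit genes, Itga6 made up 64.4 ± 2.84% at 0 h and 27.4 ± 9.61% at 5 days (SD, n = 3). The Itga7 share was 0.457 ± 0.0413% and then 32.9 ± 2.28%, while that of Itga3 was 34.5 ± 2.84% and then 36.6 ± 7.89%. In 5 day replicate 3, which was low in lens markers, the Itga6 share was 16.6%, the lowest of the 6 libraries, and without it the 5 day means were 32.8% for Itga6, 31.7% for Itga7 and 32.1% for Itga3. The share of Itga2 was 0.436 ± 0.0631% at 0 h and 2.28 ± 0.646% at 5 days. These are shares of RNA and do not count receptors.

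**Figure D2:**
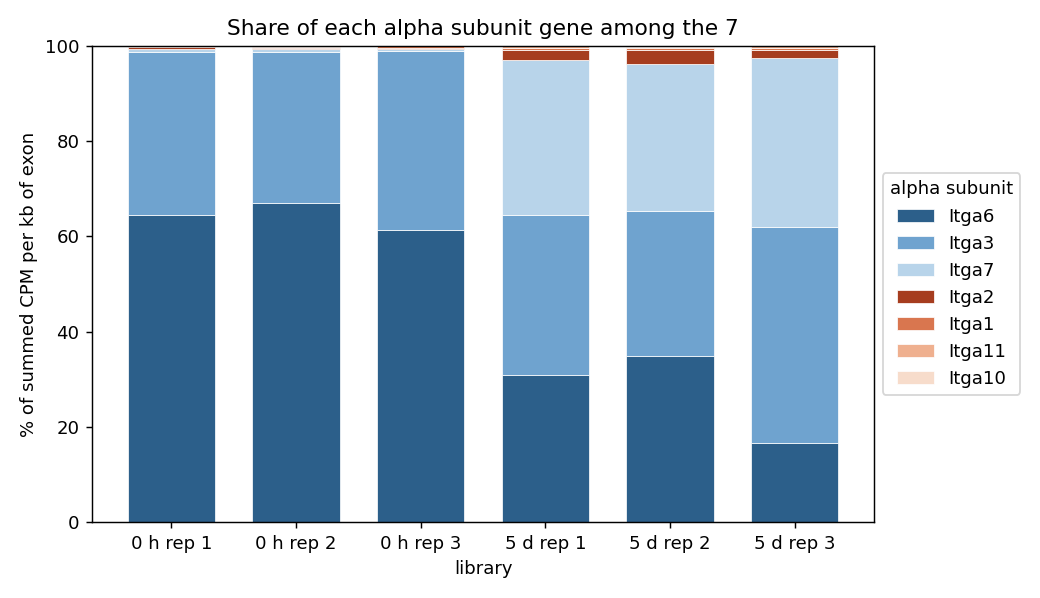
Share of each alpha subunit gene in the summed CPM per kb of exon of the 7, in percent, 1 bar for each library; blue shades are laminin-binding and red shades collagen-binding subunits. Itga6 fills 61.4 to 67.1% of the 0 h bars and 16.6 to 34.8% of the 5 day bars, where Itga7 fills 30.8 to 35.3%.

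As a sum, the laminin-binding alpha transcripts came to 122, 121 and 118 CPM per kb at 0 h and to 136, 124 and 139 at 5 days, a ratio of means of 1.11. The fall of Itga6 and the rise of Itga7 thus left their sum with Itga3 slightly higher. The collagen-binding alpha transcripts summed to 0.853, 0.885 and 0.879 CPM per kb at 0 h and to 4.06, 4.91 and 3.70 at 5 days, a ratio of means of 4.84. Laminin-binding over collagen-binding alpha transcripts came to 138 ± 4.46 at 0 h and 32.0 ± 6.26 at 5 days (SD, n = 3), 4.29-fold lower, and the libraries of the groups did not overlap. The ratio of Itga6 to Itga7 went from 141 ± 11.5 to 0.849 ± 0.342, with 5 day replicate 2 the only 5 day library in which Itga6 was above Itga7 per kb of exon union. Itga6 per Itgb4 went from 385 ± 245 to 5.59 ± 2.63. Without 5 day replicate 3 the 5 day means of these 3 ratios were 29.3, 1.04 and 6.90. No p is given for these sums and ratios, since the genes in them were chosen with earlier results known.

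Itgb1, the beta partner that 7 of these 8 products can use, was at 311.7, 336.7 and 332.5 CPM at 0 h and at 1579, 1332 and 2324 CPM at 5 days. All 5 day libraries were well above those at 0 h, replicate 3 most. The log2 fold change was 2.42 (SE 0.18, adjusted p = 6.09e-07), and 2.14 without replicate 3. Per kb, Itgb1 was 0.663 ± 0.0345 of the sum of the 7 alpha genes at 0 h and 3.10 ± 0.787 at 5 days, or 2.65 without replicate 3. Itgb1 also serves alpha subunits outside these groups.

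Among 9 other integrin subunit genes, 7 were tested and 6 rose, beside 25.1% of all genes tested. Itgb3 passed the filter only through its 5 day libraries, and Itga4 was below its level in 0 h replicate 1, so this count favours rises. Itgb5 was not called, at a log2 fold change of 0.12. The called gene of highest level was Itgav, an alpha subunit of receptors for vitronectin, fibronectin and latent TGF-beta, which rose by 1.02 (SE 0.14) on the log2 scale. The largest rise was in Itgb3, from 4 counts in all at 0 h to 159 at 5 days, at 5.24 (SE 0.68), and 4.63 without 0 h replicate 2. Among 9 leukocyte and platelet integrin genes, 7 were tested and all 7 rose, beside 25.1% of all genes tested. All of these except Itga2b were below the filter's 1.22 CPM in every 0 h library. They were tested only through their 5 day libraries, so this count favours rises. Itgb2, the beta subunit common to leukocyte integrins, was at 0.55 to 0.95 CPM at 0 h and 39.7 to 68.2 CPM at 5 days, at 6.05 (SE 0.29). Itgax, an alpha subunit of macrophages and dendritic cells, had 3 counts at 0 h and 686 at 5 days, a scaled ratio of 244 with an exact 95% counting interval of 83.1 to 1185. All 3 counts at 0 h were in replicate 1, and against a floor of 3 counts over the other 0 h libraries it was at least 176-fold higher.

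Those rises came with leukocyte markers. The 12 leukocyte markers summed to 12.1 to 31.4 CPM at 0 h and to 361 to 533 CPM at 5 days. All 7 of them that were tested rose, beside 25.1% of all genes tested. Among the 7 were Ptprc at 5.04 (SE 0.23) and the macrophage gene Csf1r at 3.70 (SE 0.24) on the log2 scale. Adgre1 and S100a9 were below the filter's 1.22 CPM in every 0 h library. Ptprc and Cd68 were above it at 0 h only in replicate 3, so the count of leukocyte markers favours rises. The lymphocyte genes Cd3e, Cd79a and Ms4a1 were at 0 counts in every library. Macrophages also express Itgb1, and some leukocytes express Itga1 and Itga2. The part of leukocytes in the changes of these genes was not tested.

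**Figure D3:**
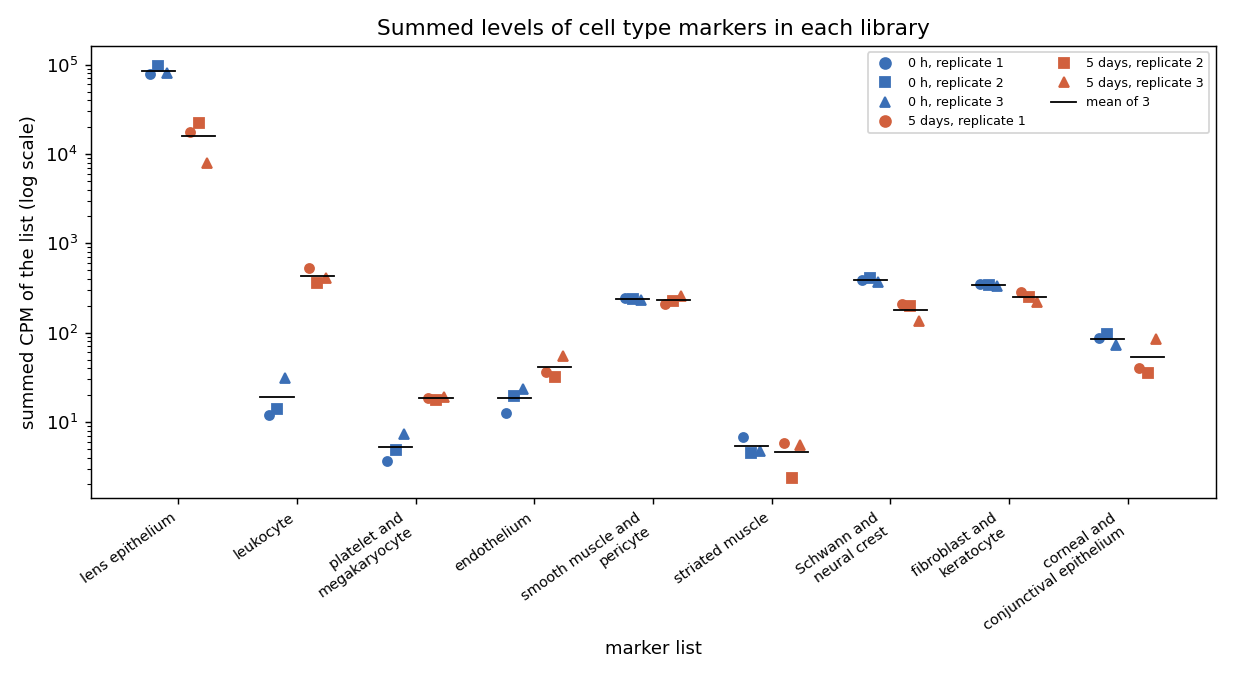
Summed CPM of lists of cell type markers in the 6 libraries, on a log axis. The lists of retinal neurons and of ciliary body, iris and pigment epithelium are not shown. Blue symbols are 0 h, orange symbols are 5 days, the shape is the replicate and the black line the mean of 3. The lens epithelium sum is lower and the leukocyte, platelet and endothelium sums are higher in every 5 day library. The fibroblast and keratocyte sum, nearly all of it Pdgfra at 0 h, is lower with that gene. Replicate 3 of the 5 day group is lowest for lens epithelium and highest of the 5 day libraries for corneal and conjunctival epithelium.

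The ligands of the laminin-binding subunits are trimers of an alpha, a beta and a gamma laminin chain. Of 10 laminin chain genes on the list, 9 were tested, 6 were called higher and 2 lower, beside 25.1% and 22.5% of all genes tested. The median of the tested genes was 0.52 on the log2 scale. Lama4 was below the filter's 1.22 CPM in every 0 h library, so the count favours rises. Among alpha chains, Lama3, a chain of epithelial basement membranes, stood at 400.2, 337.9 and 324.5 CPM at 0 h and at 19.1, 30.0 and 52.8 CPM at 5 days. It fell by 3.36 (SE 0.27) on the log2 scale, with no overlap between the groups. Lama4, a chain of mesenchymal and vascular basement membranes, went from 5 counts in all to 309, at 5.90 (SE 0.51), and 6.63 without 0 h replicate 1. Lama1, the main alpha chain of embryonic basement membranes, rose by 0.52 (SE 0.09) and Lama2, that of muscle, by 0.33 (SE 0.10). The Lama2 call was lost when 0 h replicate 2 (0.31, adjusted p = 0.0702), 0 h replicate 3 (0.28, adjusted p = 0.0982) or 5 day replicate 1 (0.30, adjusted p = 0.0809) was left out. Lama5, a chain of mature epithelial basement membranes, was not called, at 0.02 (SE 0.11).

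Among beta and gamma chains, Lamb1 rose by 1.46 (SE 0.12) and Lamc1, the gamma chain of most laminins, by 0.75 (SE 0.11) on the log2 scale, while Lamb2 fell by 0.67 (SE 0.09). Lamb3, a beta chain of epithelial basement membranes, was at 3.23, 3.73 and 3.10 CPM at 0 h and at 2.55, 5.90 and 25.7 CPM at 5 days. Its groups overlapped, and its call at 1.79 (SE 0.64, adjusted p = 0.0358) was lost without 5 day replicate 3, the library with Krt14 (0.34, adjusted p = 0.562) and without any 1 of the 0 h libraries (1.73 to 1.87, adjusted p from 0.0879 to 0.0972). DESeq2 (adjusted p = 0.105) and limma-voom (adjusted p = 0.163) did not call it either. Lamc3 was not tested.

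Type IV collagen, the network collagen of the capsule and a ligand of the Itga1 product, was high at both times. Of its 6 chain genes, all tested, 4 fell and 1 rose, beside 22.5% and 25.1% of all genes tested. The median of the 6 was -0.47 on the log2 scale. Col4a1 was at 14790 to 15170 CPM at 0 h and at 7091 to 7622 CPM at 5 days, and it fell by 1.04 (SE 0.14). Its partner chain Col4a2 fell by 1.22 (SE 0.13), Col4a4 by 0.55 (SE 0.11) and Col4a5 by 0.39 (SE 0.11), whereas Col4a6 rose by 0.93 (SE 0.11). The Col4a5 call was lost on total library size (-0.26, adjusted p = 0.0512). Col4a3 was not called, at -0.16 (SE 0.12).

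Fibrillar and other interstitial collagens, ligands of the Itga2 and Itga11 products, moved the other way. Of 15 chain genes, 14 were tested, 11 rose and 1 fell, beside 25.1% and 22.5% of all genes tested. The median of the 14 was 3.98 on the log2 scale. Col3a1, Col5a2 and Col14a1 were below the filter's 1.22 CPM in some 0 h libraries, so the count favours rises. Col1a1, the main chain of type I collagen, was at 13.5, 2.19 and 4.05 CPM at 0 h and at 708, 773 and 1349 CPM at 5 days, a log2 fold change of 7.21 (SE 0.50), and 8.24 without 0 h replicate 1. The largest rise was in Col3a1, at 7.47 (SE 0.74), whose 0 h level rested on 31, 2 and 0 counts, and which ran from 6.80 to 10.85 with 1 library left out. Col2a1, the collagen of cartilage and vitreous, fell, at -2.04 (SE 0.31), and at -2.73 without 5 day replicate 3. The 10 retinal neuron markers fell with it, from 582 to 877 CPM in sum at 0 h to 41.4 to 118 CPM at 5 days, and their part in that fall was not tested.

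**Figure D4:**
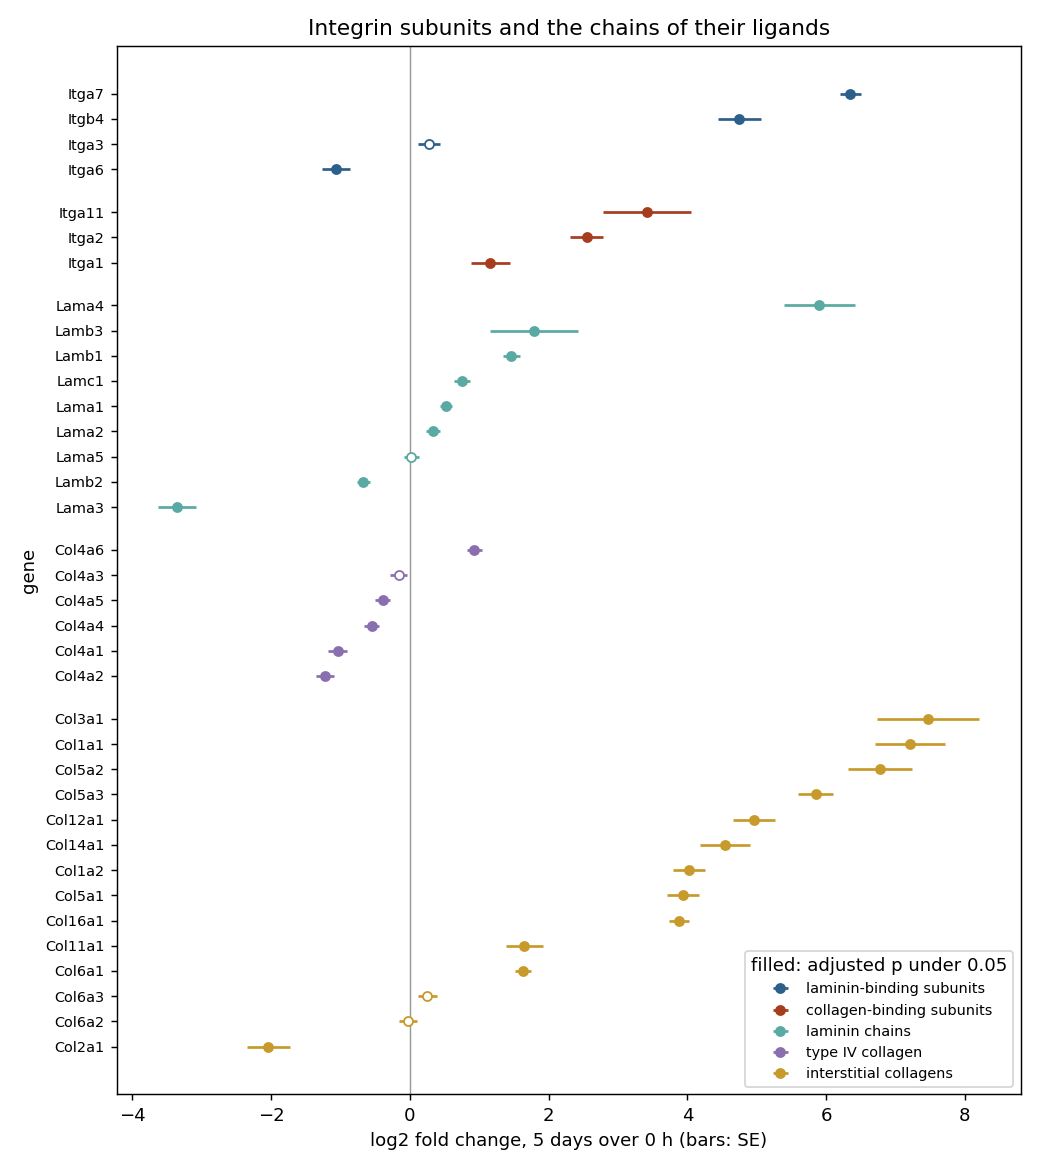
Log2 fold change of CPM, 5 days over 0 h, for the 7 tested integrin subunit genes and the listed chains that were tested of laminin, type IV collagen and interstitial collagen; points are edgeR estimates, bars their SE, and filled points have an adjusted p under 0.05. Laminin-binding subunits run from -1.07 to 6.35, collagen-binding subunits lie between 1.16 and 3.42, 4 of 6 type IV chains lie below 0 as filled points, and 11 of 14 interstitial chains lie above 0 as filled points.

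Lateral partners sit beside integrins in the membrane. Of 11 such genes, 10 were tested, 7 rose and 2 fell, beside 25.1% and 22.5% of all genes tested, with a median of 0.56. The tetraspanin gene Cd63 had the largest rise, 1.89 (SE 0.11) on the log2 scale, Emp2 had the largest fall, -0.92 (SE 0.10), and Slc3a2, the amino acid transporter heavy chain that binds beta subunit tails, had the highest level of the called genes and fell by 0.81 (SE 0.12). Of 11 genes for activators and adaptors that switch integrins on from inside, all tested, 7 rose and 2 fell, beside the same shares. The median of the 11 was 0.76. Fermt1 was below the filter's 1.22 CPM in every 0 h library, and Fermt3, Apbb1ip and Rasip1 in most of them. This count and median thus favour rises. Tln1 and Tln2 encode the talins, which bind beta subunit tails, and they moved apart: Tln1 rose by 0.89 (SE 0.14) and Tln2 fell by 0.92 (SE 0.09). Fermt1, the kindlin of epithelia, had 0 counts at 0 h and 10, 10 and 37 at 5 days, at least 19.1-fold higher against a floor of 3 counts over the 0 h group, and at least 11.8-fold higher without 5 day replicate 3.

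Of 14 genes of signalling and linkage behind integrins, all tested, 9 rose and none fell, beside 25.1% and 22.5% of all genes tested, with a median of 0.51. Vcl, which encodes vinculin and had the highest level of the called genes, was at 106.7, 118.6 and 118.0 CPM at 0 h and at 643.7, 610.1 and 965.7 CPM at 5 days, at 2.69 (SE 0.17) on the log2 scale, and 2.44 without 5 day replicate 3. The largest rise was in Tgfb1i1, a focal adhesion adaptor related to paxillin, at 3.32 (SE 0.23).

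Promoter sequence, from RefSeq on build GRCm38.p6, covered 6 of the 9 genes counted with Itgb1. The windows of the 3 collagen-binding genes that rose are shown because those genes moved together, each with 250 bases before the start and 50 after it on the gene's strand, and capitals mark a motif match.
Itga1, chr13:115101915-115102214, minus strand: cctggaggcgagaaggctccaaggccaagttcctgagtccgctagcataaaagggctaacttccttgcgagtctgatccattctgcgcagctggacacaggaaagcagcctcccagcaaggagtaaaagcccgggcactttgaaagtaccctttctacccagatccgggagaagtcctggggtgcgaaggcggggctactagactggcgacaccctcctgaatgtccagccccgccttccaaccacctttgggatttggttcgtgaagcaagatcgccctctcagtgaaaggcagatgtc
Itga2, chr13:114932051-114932350, minus strand: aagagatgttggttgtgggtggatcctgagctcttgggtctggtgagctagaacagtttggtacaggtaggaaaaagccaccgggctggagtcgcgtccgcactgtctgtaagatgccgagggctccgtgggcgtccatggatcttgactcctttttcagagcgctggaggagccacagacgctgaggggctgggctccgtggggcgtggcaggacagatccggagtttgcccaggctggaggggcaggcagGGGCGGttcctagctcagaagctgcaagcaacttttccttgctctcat
Itga11, chr9:62677605-62677904, plus strand: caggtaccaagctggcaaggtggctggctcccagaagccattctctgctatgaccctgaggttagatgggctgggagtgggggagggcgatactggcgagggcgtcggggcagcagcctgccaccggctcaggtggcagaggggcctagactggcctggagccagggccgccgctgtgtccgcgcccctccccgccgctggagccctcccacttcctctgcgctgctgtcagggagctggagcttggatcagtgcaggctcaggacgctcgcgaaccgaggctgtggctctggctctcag
Searched on both strands were the AP-1 site TGAGTCA, which 5.2% of 32851 promoter windows hold, the TEAD site GGAATG (14.7%), the SMAD box GTCTAGAC (0.213%), the GC box GGGCGG (35.7%), the TATA box TATAAA (13.6%) and the ETS site CCGGAA (14.9%). The Itga2 window held a GC box 3 bases after the start and no other match. The Itga1 and Itga11 windows held none of these letters. No motif was thus common to the 3 windows. Their GC content was 56.7% for Itga1, 59.3% for Itga2 and 68.0% for Itga11.

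For each tested integrin gene, the 2 genes with the most similar course over the 6 libraries were sought among 10556 candidates, by the root mean square difference of centred log2 CPM. This is a description of 6 libraries that share 2 times, and it carries no p. Nearest to Itga6 were Cap2 (0.05), which encodes a cyclase-associated actin regulator, and the planar polarity cadherin gene Celsr1 (0.06). Both were lowest in 5 day replicate 3, as Itga6 was, with Celsr1 at 99.9, 101 and 51.4 CPM at 5 days. Nearest to Itga3 were Tinagl1 (0.04), a matrix protein gene, and Frmd6 (0.08), and nearest to Itga7 were Tnfaip2 (0.11) and Adcy7 (0.13), an adenylate cyclase gene. Nearest to Itgb4 were Fhl2 (0.23) and Cd40 (0.25), each with 0 to 0.40 CPM at 0 h. Nearest to Itga2 were Klhl29 (0.18) and Medag (0.19), nearest to Itga1 were Iqsec3 and Crtap (0.07 each), and nearest to Itga11 were Shc2 (0.16) and Ccl2 (0.18), a chemokine gene.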

How the data were processed

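RNA was sequenced from 6 pools of lens capsules (SMARTer stranded total RNA kit, per the labels' protocols). The deposited values are raw counts per gene. The submitters' processing notes name HISAT2, HTSeq and edgeR as the authors' tools and GRCm39 as their build. Tool versions, gene annotation and the strand setting: not given in the sources used here. The 5 summary entries, 32.26 to 42.55% of each library, were left out. Symbols matched 91.32% of identifiers.

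Genes kept by filterByExpr (14676) were tested with edgeR 4.0.16 in R 4.3.3 (TMM, quasi-likelihood, time only, all 6 libraries, Benjamini-Hochberg over all of them, threshold 0.05), after a check on simulated counts. Alternatives used DESeq2 1.42.0, limma 3.58.1 voom, other scalings and filters, replicate blocks, and each library left out. Intervals cover counting error only. Figures used matplotlib 3.10.9. Lengths and coding stretches came from GENCODE M21 (GRCm38), a different build from the counts; the printed coordinates are those of RefSeq promoter windows on GRCm38.p6 and were not joined to the counts by position. Marker sums without their highest gene, and shares and ratios without 5 day replicate 3, were added after seeing the data.

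The integrin genes and all lists were chosen with earlier results of these data known. Of 220 list genes 219 matched. Named are all integrin genes of the 2 groups, Itgb1, the listed laminin and type IV collagen chains, and, of each other list, the called gene of highest mean, of largest rise and of largest fall; further genes named beside them illustrate a group and were chosen after their values were seen. Same-numbered libraries did not deviate together (correlations 0.039, -0.09 and 0.043), so the title numbers gave no pairs and the comparison was run unpaired. This check cannot tell whether pools of the groups share mice, which the labels do not give. Protein sequences were not analysed here, and 1 gene is not reported here.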

Additional observations from a re-analysis of the deposited data

How the results depend on the processing

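The 6 called integrin genes and Itgb1 kept their call and direction in 104 of 104 alternatives. The 5 genes higher became 4 with at least 2 CPM asked of 3 libraries, which leaves Itga11 untested, and with 1 library left out they numbered 5 to 6. A replicate block on the numbers of the titles gave 5 higher and 1 lower, with 3550 and 3188 genes over all; not every library correlated best with its own number. A replicate block on the numbers of the library names, in which 0 h replicate 2 and 5 day replicate 3 have no partner and add nothing, turned Itga3 to -0.003 (adjusted p = 0.988) and changed no other call of an integrin gene of the 2 groups. It took Itgb4 to 4.30 and Itga6 to -0.79, and it lost the calls of Lamb3 (0.38), Col4a5 (-0.34) and Ddr1 (0.32); the block on title numbers lost that of Lamb3 (1.31, adjusted p = 0.056). With 1 library left out, Lama5 ran from -0.054 to 0.078. The ratio of laminin- to collagen-binding alpha transcripts was 207 at 0 h and 50.2 at 5 days with longest transcripts, and 111 and 28.9 with no length correction. Total library size moved the median of all genes by 0.13 on the log2 scale and the share of calls that were higher from 52.7 to 62.9%. The strict filter took higher calls among lens epithelium, endothelium and fibroblast markers from 1, 4 and 5 to 0, 2 and 3, and the other 97 of 100 list counts stayed within 1.5 times. Depth limits Itga10 and Itga11, which had 11 and 5 counts in all at 0 h.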

Other observations

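Receptors for the same ligands outside the integrin family gave different counts for the 2 ligands. Of 12 genes for other laminin receptors, 10 were tested, 2 rose and 4 fell (edgeR), beside 25.1% and 22.5% of all genes tested. The median of the 10 was -0.24 on the log2 scale. Rpsa, which encodes a ribosomal protein also described as a laminin receptor, had the highest level of the called genes and fell by 0.69 (SE 0.12). Sdc1, a heparan sulfate proteoglycan of epithelia, had the largest rise, from 72.7 to 83.0 CPM at 0 h to 149.6 to 225.9 CPM at 5 days, at 1.22 (SE 0.14). Sgcd, a sarcoglycan gene, had the largest fall, at -1.35 (SE 0.35). Dag1, which encodes dystroglycan, stood at 346.7, 366.8 and 351.7 CPM at 0 h and at 378.4, 350.9 and 390.1 CPM at 5 days. Its groups overlapped and it was not called, at 0.07 (SE 0.10).

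Of 8 genes for other collagen receptors, 7 were tested and 6 rose, beside 25.1% of all genes tested, with a median of 2.12. Lair1 and Adgrg6 were below the filter's 1.22 CPM in every 0 h library, so this count favours rises. Ddr1, a collagen-activated receptor tyrosine kinase of epithelia, had the highest level of the called genes and rose by 0.36 (SE 0.10), a call lost without 0 h replicate 2 (0.34, adjusted p = 0.0638) or 5 day replicate 1 (0.30, adjusted p = 0.0792). Lair1, an inhibitory collagen receptor of leukocytes, had the largest rise, from 7 counts in all to 231, at 5.09 (SE 0.48), and 5.76 without 0 h replicate 1. Adgrg6, an adhesion receptor that binds type IV collagen and laminin, was at 0.27, 0.66 and 0.72 CPM at 0 h and at 8.28, 10.6 and 13.7 CPM at 5 days, at 4.25 (SE 0.40). Adgrg6 was named after its values were seen. The part of leukocytes, whose markers rose in the same libraries, in the change of Lair1 was not tested, and whether the laminin and the collagen receptor lists differ was not tested either.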
